A study of Mus musculus with 2 samples.

Results

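The genes described here are 5 genes of the mouse T cell receptor gamma locus, the variable segments Trgv2 and Trgv4 and the constant genes Trgc1, Trgc2 and Trgc4. They were taken from a table of 27179 genes by matching Entrez identifiers to these symbols. The table lists 15 genes of the locus in all, and the other 10 are given beside them. The 5 genes were chosen with their difference between the libraries already known, so their levels and ratios are a description, and no test was made on them.

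RNA sequencing was done on ALL211, a primary T-cell acute lymphoblastic leukemia (T-ALL) grown in recipient mice. Both groups carry Vav-tTA and TRE-GFP-shIkaros: regulatory elements of Vav, active in blood cells, drive a tetracycline-controlled transactivator, which drives GFP and a short hairpin RNA against Ikaros. The untreated group was sorted from spleen as GFPhigh cells, and the group treated with doxycycline (Dox) for 3 days, which shuts the hairpin off and lets Ikaros return, as GFPmid cells. Each group has 1 library (16960042 counts untreated, 16484613 counts Dox), and all values come from 1 leukemia. The series design speaks of 2 mice per condition, but the sources used here do not say whether their RNA was pooled, nor the age or strain of the mice. With 1 library per group there is no replicate check and no p-value, and treatment, sorting gate and mouse cannot be told apart. Intervals are 95% intervals that cover counting error only, since reads are not independent molecules. Ikzf1, which encodes Ikaros, was at 120.5 CPM (counts in each 1e+06 of the scaled library total) untreated and 1229 CPM Dox, the direction the labels give. All 8 general T cell markers (Cd3d, Cd3e, Cd3g, Cd247, Lck, Zap70, Lat and Cd2) were present, with a summed level of 4292 CPM untreated and 5999 CPM Dox.

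The gamma chain is one of the 2 antigen-binding chains of the receptor of gamma-delta T cells, where it pairs with the delta chain and sits in the membrane with the CD3 chains. Its gene is assembled in early thymocytes: the RAG recombinase joins a variable (V) segment to a joining (J) segment, and splicing links these to the exons of a constant (C) gene. Signalling from the interleukin-7 receptor through STAT5 opens the locus for this step. Most T cells go on to express an alpha-beta receptor, and in that lineage transcription of gamma genes is largely silenced. The delta genes lie inside the alpha locus and are deleted when alpha segments are joined.

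The locus spans 174.3 kb of chromosome 13 in the GRCm38 assembly (mm10), chr13:19178042-19352343, and holds 4 clusters, each with its own J segment and constant gene. From left to right these are Trgv7, Trgv4, Trgv6, Trgv5, Trgj1 and Trgc1; Trgv3, Trgj3 and Trgc3; Trgc2, Trgj2 and Trgv2, on the minus strand; and Trgv1, Trgj4 and Trgc4. They are called here by their constant gene. Trgc1 lies at chr13:19214103-19216618, Trgc2 at chr13:19305060-19307551, Trgc4 at chr13:19344558-19352343, Trgv2 at chr13:19336573-19337026 and Trgv4 at chr13:19184981-19185506. The sequences below, from the GENCODE vM21 transcripts of GRCm38, show how far reads can tell these genes apart. The J segments are given first. Capitals mark bases that differ from Trgj2 after alignment, 4 in Trgj1, 6 in Trgj3 and 18 in Trgj4, which also has 1 extra base, likewise in capitals.
Trgj2: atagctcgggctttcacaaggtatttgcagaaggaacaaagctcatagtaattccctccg
Trgj1: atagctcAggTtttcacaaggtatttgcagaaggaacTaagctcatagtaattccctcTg
Trgj3: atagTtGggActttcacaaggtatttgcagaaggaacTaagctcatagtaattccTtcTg
Trgj4: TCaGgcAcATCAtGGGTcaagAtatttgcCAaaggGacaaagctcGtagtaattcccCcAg
Trgj2 is read from the minus strand, chr13:19311245-19311304. Trgj1 (chr13:19210343-19210402), Trgj3 (chr13:19257117-19257176) and Trgj4 (chr13:19342152-19342212) are on the plus strand.

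The constant genes differ in length in the exons between the first and the last coding exon, which encode the connecting peptide between the immunoglobulin domain and the membrane. Capitals mark bases of Trgc1 and Trgc3 with no partner in Trgc2 exon 2, whose 30 bases are 15 shorter.
Trgc2 exon 2: ttgctacaacttgctggcaagataaaaatg
Trgc1 exon 2: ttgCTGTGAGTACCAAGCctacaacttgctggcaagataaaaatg
Trgc3 exon 2: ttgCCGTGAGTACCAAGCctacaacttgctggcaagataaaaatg
Trgc4 exon 2: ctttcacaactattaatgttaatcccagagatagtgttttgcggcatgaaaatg
Trgc4 exon 3: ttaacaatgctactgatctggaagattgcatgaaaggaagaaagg
These exons lie at chr13:19305769-19305798 (Trgc2, minus strand) and, on the plus strand, at chr13:19215864-19215908 (Trgc1), chr13:19262644-19262688 (Trgc3), chr13:19349536-19349589 and chr13:19350330-19350374 (Trgc4). Over the whole coding sequence Trgc1 was 94.6% identical to Trgc2 and 96.7% to Trgc3, while Trgc4 was 70.5% identical to Trgc1 and 68.5% to Trgc2. Of all stretches of 50 bases, 41.6% of those in Trgc1 and 22.8% of those in Trgc2 also occur in another constant gene of the locus, against 0% in Trgc4. For stretches of 100 bases the shares were 15.1%, 0% and 0%. The sources used here give neither the read length nor the handling of reads with several alignments, so the counts of Trgc1, Trgc3 and, to a lesser extent, Trgc2 are uncertain.

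The variable segments fall into near copies and distant ones. The last 40 coding bases, next to the joint, are shown for the 2 segments described and for the near copies of Trgv2, with capitals for bases that differ from Trgv2.
Trgv2: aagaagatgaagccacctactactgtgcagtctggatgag
Trgv1: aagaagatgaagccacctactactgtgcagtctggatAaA
Trgv3: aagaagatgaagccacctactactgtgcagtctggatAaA
Trgv4: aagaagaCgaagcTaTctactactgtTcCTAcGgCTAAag
Trgv2 ends on the minus strand at chr13:19336573-19336612, and on the plus strand Trgv1 ends at chr13:19340415-19340454, Trgv3 at chr13:19243262-19243301 and Trgv4 at chr13:19185467-19185506. Trgv1 and Trgv3 were identical over these bases. Trgv2 was 94.9% identical to Trgv1 and 93.8% to Trgv3 over the coding sequence, and 58.1% identical to Trgv4. Stretches of 50 bases shared with another segment made up 10.3% of Trgv2, 26.8% of Trgv1 and 0% of Trgv4. For stretches of 100 bases the shares were 0%, 2.02% and 0%. The counts of Trgv2 and Trgv1 are thus also uncertain, to an extent that depends on the read length.

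In the untreated library the whole locus had 174 counts, 10.2 CPM, and in the Dox library 7828 counts, 478.0 CPM. The summed level was thus 46.9-fold higher in the Dox library (interval 40.3 to 54.8). Every gene of the locus with more than 2 counts in either library was higher there. The 5 genes took 148 of the 174 counts untreated (85.1%, Wilson interval 79.0 to 89.6) and 6900 of 7828 in the Dox library (88.1%, 87.4 to 88.8). In bulk RNA, fewer cells of a type and less RNA per cell cannot be told apart.

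**Figure D1:**
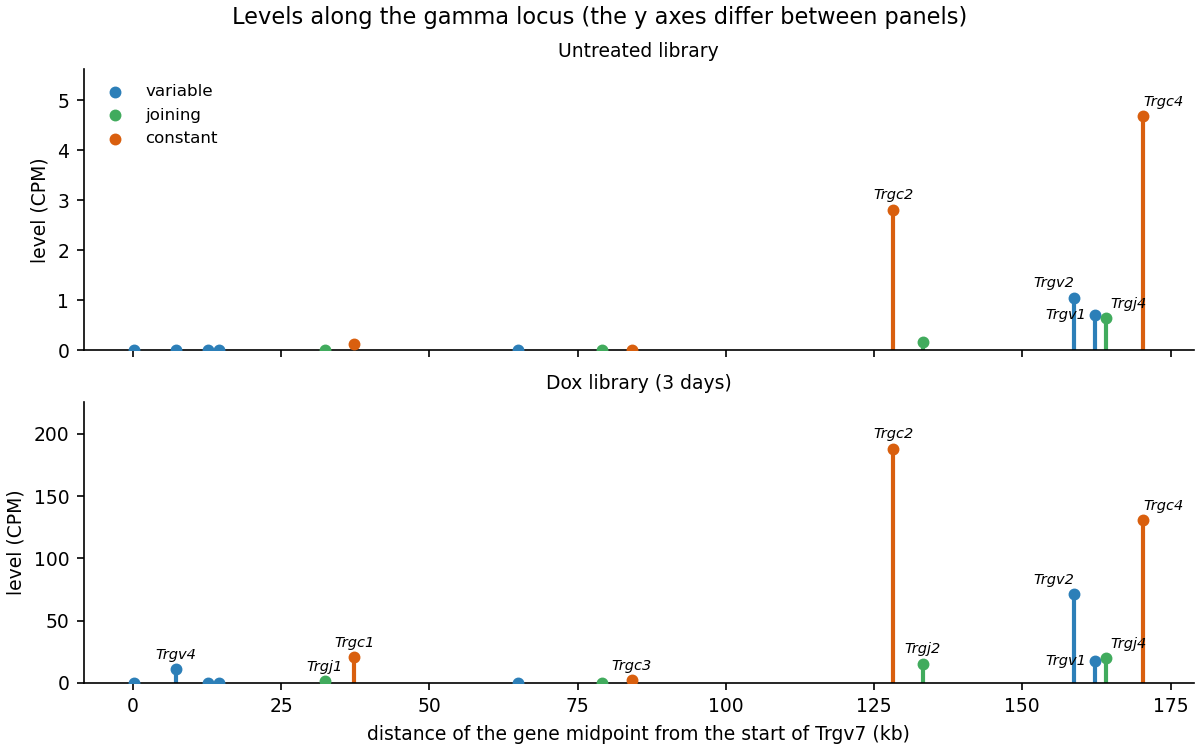
Levels of the 15 gamma genes (CPM, linear axes that differ between the panels) against the distance of each gene's midpoint from the start of Trgv7 (kb), in the untreated library (top) and the Dox library (bottom); each line and point is 1 gene, coloured by kind. Trgc4 stands highest in the untreated library (4.69 CPM) and Trgc2 in the Dox library (188.1 CPM), while the highest gene of the left part of the locus, Trgc1, reaches 20.6 CPM Dox.

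Among the constant genes, which carry the membrane anchor of the chain, Trgc2 had 48 counts (2.81 CPM) in the untreated and 3081 counts (188.1 CPM) in the Dox library. Its level was 66.9-fold higher in the Dox library (interval 50.3 to 90.9). Trgc4 had 80 counts (4.69 CPM) and 2137 counts (130.5 CPM), 27.8-fold higher (22.3 to 35.3). The intervals of these 2 ratios do not overlap. Trgc1 had 2 counts (0.117 CPM) and 337 counts (20.6 CPM), a ratio of 176 whose interval runs from 48.2 to 1456. Trgc3, a constant gene of a cluster not known to give a working chain, had 0 counts untreated and 35 Dox. Its level was 12.2-fold higher when 0 is set at a floor of 3 counts in the library. The interval of its ratio starts at 9.38.

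Of the variable segments, which form the antigen-binding end, Trgv2 had 18 counts (1.05 CPM) and 1167 counts (71.3 CPM), 67.6-fold higher in the Dox library (interval 42.6 to 114). Trgv4 had 0 counts untreated and 178 counts (10.9 CPM) Dox, 61.8-fold higher with the same floor. The interval of its ratio starts at 49.8. Trgv1, outside the 5 genes although it had more counts than Trgv4, had 12 and 291 counts (0.703 and 17.8 CPM), a ratio of 25.3 (14.3 to 49.5). The remaining variable segments were nearly silent in both libraries: Trgv7 and Trgv3 had 0 and 2 counts each, and Trgv5 and Trgv6 had 0 in both, so no fold is given.

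The J segments, also outside the 5 genes, followed their clusters. Trgj2 had 3 and 251 counts, a ratio of 87.2 (interval 29.5 to 426). Trgj4 had 11 and 325 counts, a ratio of 30.8 (17.0 to 62.3). Trgj1 had 0 and 22 counts, 7.64-fold higher with the floor (interval from 5.71), and Trgj3 had 0 in both libraries. A read that runs across a V, a J and a C gene overlaps several genes of the table, and the sources used here do not say how such reads were counted.

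**Figure D2:**
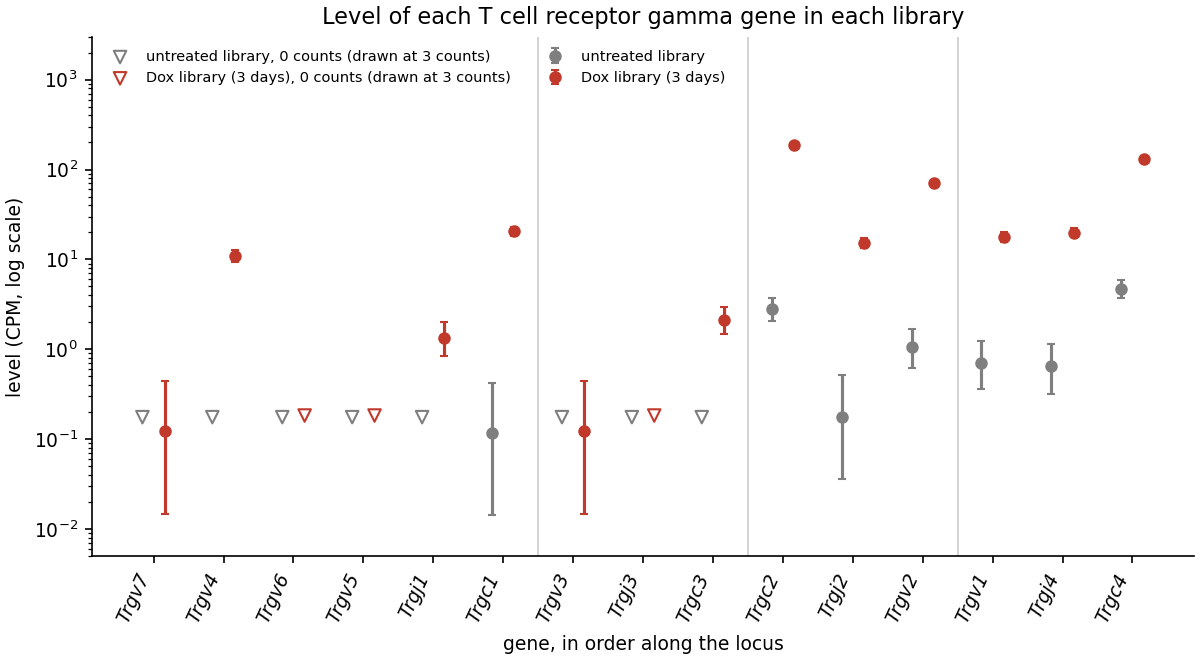
Level (CPM, log axis) of each gamma gene in the untreated (grey) and Dox (red) library, in order along the locus, with grey lines between the 4 clusters; bars are exact Poisson 95% intervals of the counts, and open triangles mark 0 counts, drawn at the level of 3 counts. The Dox value lies above the untreated value for all 10 genes that reached 1 CPM, and the intervals of these pairs do not overlap. Of these genes, 7 reached 1 CPM only in the Dox library and so had to be higher there.

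All 5 genes reached 1 CPM in at least 1 library, and by log2 CPM with a prior count of 2 the Dox level of 5 of 5 was higher by 2-fold or more and 0 were lower. Among the 12125 genes of the table that reached 1 CPM, 13.6% were higher and 13% lower by 2-fold or more. For 5 of 5 the counting interval lay wholly above 2-fold, against 9.11% of all genes, with 8.38% wholly below. All 5 were also higher by 16-fold or more, against 0.874% of all genes, with 0.371% lower by as much. Because the 5 genes were chosen on this difference, nothing is read from the contrast with these shares. Trgc1 and Trgv4 reached 1 CPM only in the Dox library, and genes that do so had to differ. Of the 15 genes of the locus, 10 reached 1 CPM, 7 of them only in the Dox library, and 5 did not.

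**Figure D3:**
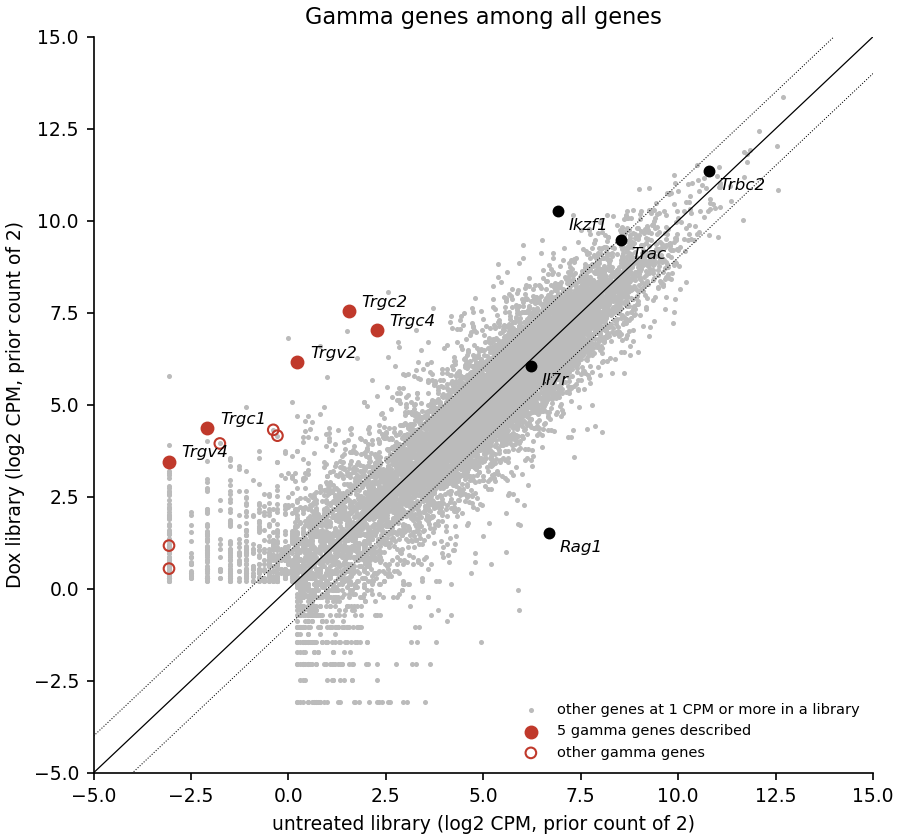
Log2 CPM (prior count of 2) in the untreated library against the Dox library for 12125 genes; filled red points are the 5 gamma genes, open red points the other 5 gamma genes that reached 1 CPM, black points 5 genes named in the text. The solid line marks equal levels and the dotted lines 2-fold; the gamma genes lie above the upper dotted line, and Il7r lies near the solid line.

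Markers of several other cell types were also higher in the Dox library, while those of stroma and endothelium were not. Over 7 lists (natural killer cells, macrophages, dendritic cells, B cells, erythroid cells, neutrophils, stroma and endothelium), 38 of 52 measured genes reached 1 CPM, 31 of them higher by 2-fold or more and 2 lower by as much, and 20 of the 31 reached 1 CPM only in the Dox library. Of all genes 13.6% were higher and 13% lower by as much. The summed levels were 1.11 and 17.3 CPM for the 7 natural killer genes and 11.8 and 78.6 CPM for erythroid genes. Macrophage genes summed to 13.3 and 161.2 CPM, with Mpeg1 alone at 1.64 and 96.8 CPM. Dendritic cell genes summed to 32.5 and 136.3 CPM, most of it Cst3 (31.3 and 89.5 CPM). All 7 genes of that list were higher by 2-fold or more, and 6 of them reached 1 CPM only in the Dox library. Clec9a had 0 and 129 counts, Siglech 0 and 101, Itgax 2 and 179, Xcr1 5 and 165 and Zbtb46 0 and 18. Of the natural killer genes, Tyrobp had 8 and 191 counts, Prf1 0 and 39, Klrk1 0 and 28 and Ncr1 0 and 2. Neutrophil genes summed to 4.39 and 8.98 CPM. In the stroma and endothelium list 0 of 4 genes that reached 1 CPM were higher by 2-fold or more and 2 were lower, Col1a2 (76.4 and 32.8 CPM) and Pdgfrb (80 and 2 counts), and the sum of 253.7 and 356.9 CPM followed Pecam1 (166.2 and 316.8 CPM). B cell genes summed to 347.4 and 953.1 CPM, nearly all of it Ighm. Jchain had 0 and 34 counts, Ms4a1 0 and 10, Cd79b 2 and 12 and Pax5 0 in both libraries. Ncr1, Ms4a1, Cd79b and Pax5 were named after their values were seen. Zbtb46 and, below, Blk also lie outside the rule by which genes were named. Of the 7 gamma-delta T cell markers 5 reached 1 CPM, and 1 of these, 5830411N06Rik (20.9 and 132.4 CPM), was at least 2-fold higher. Below 1 CPM, Trdc was at 1 and 0 counts and Blk at 0 and 7. The sum of 68.7 and 197.6 CPM mostly followed 5830411N06Rik. The alpha-beta T cell markers summed to 3798 and 6181 CPM, and 1 of 8, Cd8b1, was just past 2-fold higher. The part of other cells in the gamma locus values was not tested.

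The division of the counts between clusters was not the same in the 2 libraries. The Trgc4 cluster took 59.2% of the locus total in the untreated library (interval 51.8 to 66.2) and 35.2% in the Dox library (34.1 to 36.2). The Trgc2 cluster took 39.7% (32.7 to 47.1) and 57.5% (56.4 to 58.6). The Trgc1 cluster had 2 of 174 counts untreated, 1.15% (0.316 to 4.09), and 539 of 7828 in the Dox library, 6.89% (6.35 to 7.47). For these 3 clusters the intervals of the libraries do not overlap. The Trgc3 cluster had 0 of 174 counts, with a Wilson interval of 0 to 2.16%, and 0.473% in the Dox library, a difference not detectable at this depth.

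By gene, Trgc4 took 46.0% of the locus total in the untreated library (interval 38.7 to 53.4) and 27.3% in the Dox library (26.3 to 28.3). Trgc2 took 27.6% (21.5 to 34.7) and 39.4% (38.3 to 40.4) of counts, which are not scaled to gene length. Trgv2 took 10.3% (6.64 to 15.8) and 14.9% (14.1 to 15.7), shares whose intervals overlap. Trgc1 took 1.15% (0.316 to 4.09) and 4.31% (3.88 to 4.78), which overlap only narrowly. Trgv4 took 0 of 174 counts, with a Wilson interval of 0 to 2.16%, and 2.27% (1.97 to 2.63) of the Dox total, so its intervals also overlap.

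Within a cluster the division hardly differed. In the Trgc2 cluster, Trgc2 made up 69.6% of the cluster's counts untreated and 68.5% in the Dox library, Trgv2 26.1% and 25.9%, and Trgj2 4.35% and 5.58%. In the Trgc4 cluster, Trgc4 made up 77.7% and 77.6%, Trgv1 11.7% and 10.6%, and Trgj4 10.7% and 11.8%. Each untreated share lies within a wide interval, for Trgc2 from 57.9% to 79.2% and for Trgc4 from 68.7% to 84.6%, so modest differences could not be seen. The Trgc1 cluster, with 2 counts untreated, cannot be compared in this way; in the Dox library Trgc1 made up 62.5% of it, Trgv4 33.0% and Trgj1 4.08%.

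**Figure D4:**
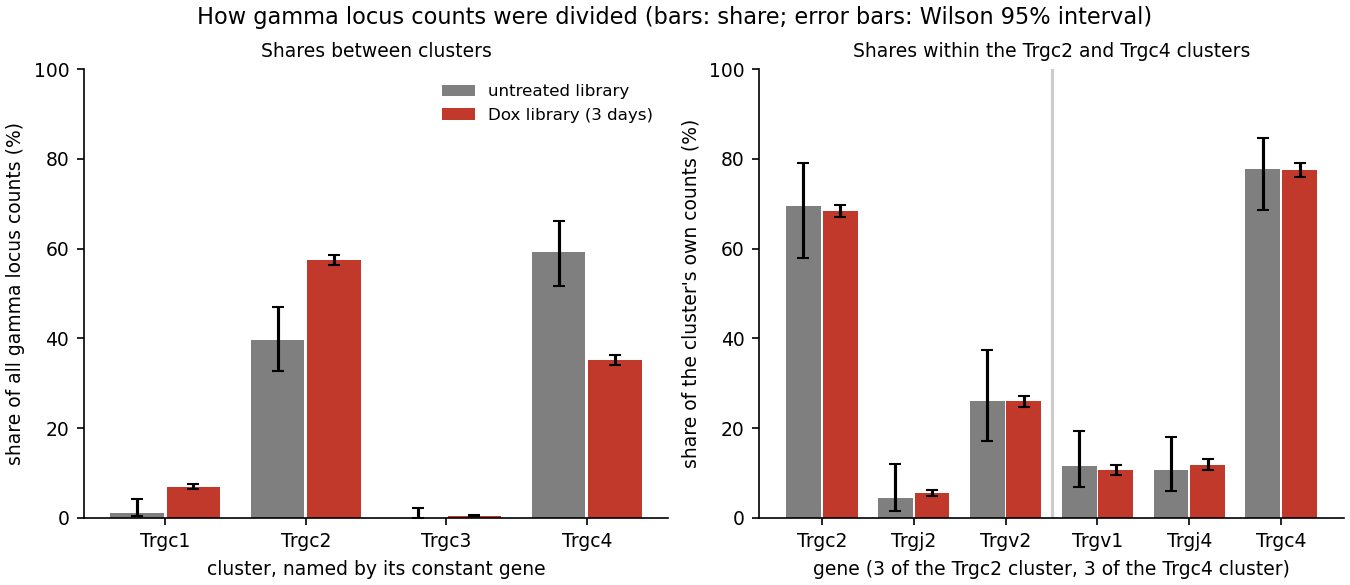
Left, share (%) of all gamma locus counts taken by each cluster; right, share (%) of a cluster's own counts taken by each of its genes; grey bars are the untreated and red bars the Dox library, with Wilson 95% intervals. The Trgc4 cluster stands at 59.2% untreated and 35.2% Dox and the Trgc2 cluster at 39.7% and 57.5%, while the bars on the right are close to each other in each pair.

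Levels of different genes can be compared only per length, as CPM per kilobase of the deposited gene length (RPKM). The J segments are left out, since they are 60 or 61 bases long and any read over them counts in full. In the Dox library the order was Trgc2 (374.0 RPKM), Trgc4 (228.5), Trgv2 (203.6), Trgv1 (51.2), Trgc1 (39.7), Trgv4 (25.9) and Trgc3 (4.13), and the counting intervals of neighbours in this order do not overlap. In the untreated library it was Trgc4 (8.21 RPKM), Trgc2 (5.59), Trgv2 (3.01), Trgv1 (2.03) and Trgc1 (0.226), with Trgv4 and Trgc3 at 0. There the intervals of Trgc4 (6.51 to 10.2) and Trgc2 (4.12 to 7.41) overlap, as do those of Trgc2 and Trgv2, and of Trgv2 and Trgv1. The level of the V segment relative to the C gene of its cluster was close in the 2 libraries. Trgv2 stood at 53.9% of Trgc2 untreated and 54.4% Dox, and Trgv1 at 24.7% and 22.4% of Trgc4. The untreated values rest on 18 counts of Trgv2 and 12 of Trgv1, so modest differences could not be seen. They restate per length the shares within clusters. Trgv4 stood at 65.3% of Trgc1 in the Dox library.

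Set against the constant genes of the beta chain, the 4 gamma constant genes together stood at 0.318% of the summed RPKM of Trbc1 and Trbc2 in the untreated library (14.0 and 4414 RPKM). In the Dox library they stood at 9.91% (646.4 and 6524 RPKM). The alpha constant gene Trac stood at 9.02% and 11.8% of the same sum. On this scale the gamma constant genes were far below Trac in the untreated library and a little below it in the Dox library.

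The delta chain, the partner of gamma, was close to absent. Trdc, its only constant gene, had 1 count in the untreated and 0 counts in the Dox library. Of the 10 genes of the delta locus, 7 had 0 counts in the Dox library, including both D and both J segments listed. These D and J segments are only 9 to 59 bases long, so 0 counts there say little. The list holds only genes whose symbols begin with Trd. The one gene that reached 1 CPM, Trdv2-2, a variable segment, had 0 counts untreated and 61 Dox. Its level was 21.2-fold higher with the floor of 3 counts (interval from 16.7). Trdv1 and Trdv2-1 had 0 and 3 counts each.

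The CD3 chains and the alpha and beta constant genes differed less than Trgc2, Trgc4 and Trgv2, the 3 gamma genes at 1 CPM or more in both libraries. These 3 were chosen with their difference known, so nothing is read from the contrast. The other 7 gamma genes that reached 1 CPM did so only in the Dox library and had to differ. Ptcra was lower in the Dox library. Of 8 genes (the CD3 chains, the alpha and beta constant genes and Ptcra), 0 were higher by 2-fold or more and 1 was lower by as much. Of all 12125 genes 13.6% were higher and 13% lower by as much, and with 8 genes these counts are not far from those shares. The median log2 fold of the 8 was 0.58, beside -0.01 over all genes. Cd247, the zeta chain that carries most of the signalling motifs, was 1.999-fold higher (390.2 and 779.8 CPM) and Trac 1.93-fold higher (369.1 and 711.1 CPM). Cd3d was 1.54-fold, Cd3g 1.46-fold and Cd3e 1.40-fold higher. The lower gene was Ptcra, the alpha chain of the pre-T-cell receptor, with 32 and 1 counts. Scaled to the summed counts of the 4 CD3 chains in place of all genes, the gamma locus was 29.4-fold higher in the Dox library.

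Of 20 listed regulators tied to the gamma locus, all measured, 4 were higher by 2-fold or more and 2 lower by as much. These counts are near the 13.6% higher and 13% lower of all genes, and the median log2 fold was 0.22. Il7r, the alpha chain of the interleukin-7 receptor, was at 74.6 CPM untreated and 66.1 CPM Dox, and the transcription factor genes Stat5a and Stat5b were at 132.3 and 120.4 CPM and at 212.6 and 270.5 CPM. The signalling partners of the receptor were somewhat higher, with Jak1, a kinase, at a log2 fold of 1.29 and Il2rg, the common gamma chain of cytokine receptors, at 1.09. Runx3, a transcription factor of T cell lineages, had 116 and 655 counts (log2 fold 2.54), and Ikzf1 had a log2 fold of 3.35. Ikzf1 is the target of the hairpin, so its place among the 4 says nothing about the list. Hmga1, a chromatin protein, had -1.68 and the transcription factor gene Myb -1.03; Il2rg and Myb were named after their values were seen.

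Of 15 listed genes of the recombination machinery 14 reached 1 CPM, of which 0 were higher by 2-fold or more and 4 lower by as much (median log2 fold -0.18), beside 13.6% and 13% of all genes. These were Rag1 (103.2 and 2.75 CPM), a subunit of the recombinase, Dntt (503.3 and 86.2 CPM), which adds bases at joints, and Xrcc6 (log2 fold -1.42) and Xrcc5 (-1.08), which encode the Ku end-binding pair. Rag2, the other recombinase subunit, had 2 and 0 counts. Xrcc4 and Lig4, which seal the ends, had log2 folds of 0.36 and 0.31 and were named after their values were seen.

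**Figure D5:**
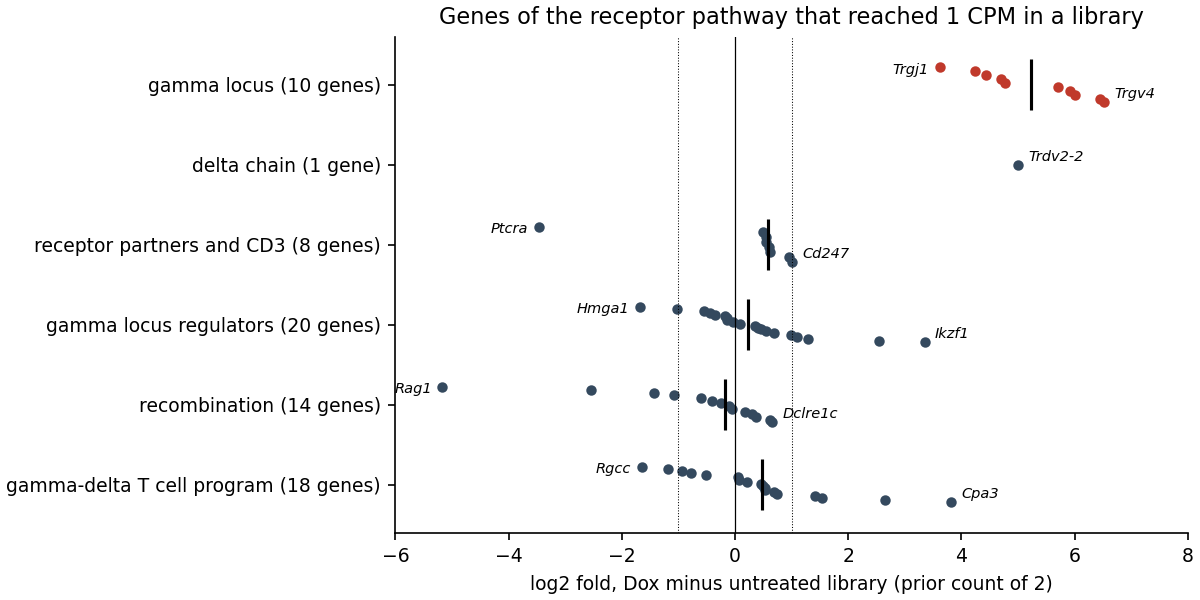
Log2 fold (Dox minus untreated library, prior count of 2) of each gene that reached 1 CPM in a library, for the gamma locus (red) and 5 lists of related genes; black bars are medians, dotted lines 2-fold, and the lowest and highest gene of each row are named. Values of genes at 0 counts in the untreated library, such as Trgv4, depend on the prior count. The gamma genes lie right of the upper 2-fold line while most genes of the other lists lie within 2-fold, apart from the 1 delta gene. Of the 10 gamma genes shown, 7 reached 1 CPM only in the Dox library and so had to be higher there.

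Of 26 listed genes known from gamma-delta T cells 18 reached 1 CPM, and 4 of these were higher by 2-fold or more and 2 lower by as much, beside 13.6% and 13% of all genes, with a median log2 fold of 0.47. 5830411N06Rik, which encodes a scavenger receptor family protein of gamma-delta T cells, was 6.33-fold higher (20.9 and 132.4 CPM). Cpa3, a carboxypeptidase best known from mast cells, had 14 and 216 counts, Cd27, a costimulatory receptor, a log2 fold of 1.54 and Txk, a kinase, 1.42. Rgcc had -1.65 and Il2rb, a chain of the interleukin-2 receptor, -1.19; Txk and Il2rb were named after their values were seen. Sox13, a transcription factor of the gamma-delta lineage, was at 16.8 and 23.5 CPM, and Blk, a kinase, had 0 and 7 counts.

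The genes whose levels lay nearest to those of Trgc2, the gamma gene with the most counts, were H2-Aa, Trgc4, Cd74, Mpeg1 and Dapl1. Their Euclidean distances in log2 CPM over the 2 libraries were 0.56, 0.89, 1.12, 1.21 and 1.31. Left out of this ranking were genes below 1 CPM in both libraries and genes with no symbol or a predicted, clone or accession-style name. H2-Aa and Cd74, of the MHC class II pathway, had 46 and 2088 counts and 98 and 4400 counts. Mpeg1, a pore-forming protein of macrophages, had 28 and 1586 counts. With 2 libraries, likeness means only a similar pair of levels.

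The genes beside the locus did not share its difference as a group. Stard3nl, 5.33 kb beyond Trgc4, was at 19.5 CPM untreated and 17.5 CPM Dox. Amph, 24.0 kb before Trgv7 and known for its part in endocytosis, had 58 and 0 counts. Its level was 18.5-fold lower in the Dox library with the floor of 3 counts. The interval of its ratio, Dox to untreated, ends at 0.0684. Vps41, farther out on the same side, was at 71.5 and 90.9 CPM. On the other side, Epdr1, Sfrp4 and Nme8 had 0 counts in both libraries. Gpr141b, 375.1 kb from Trgc4, had 0 and 95 counts, 33.0-fold higher with the floor (interval from 26.3). Its neighbour Gpr141, a related receptor gene, had 8 and 18 counts.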

How the data were processed

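The authors deposited whole-number read counts for each Entrez identifier, with a gene length. The submitters' processing notes name CASAVA 1.8.2, featureCounts and mm10. The sources used here do not give the aligner, strand setting, annotation or handling of reads over several genes. For 13 of the 15 gamma genes the deposited length equals the coding length in GENCODE vM21, with or without the stop codon. The series table and the separate sample tables held the same counts (0 genes differed), and 0 columns were left unassigned.

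Symbols came from the RefSeq table of GRCm38.p6 (25275 of 27179 genes matched). Counts were scaled with TMM factors over all genes (1.01 and 0.994, edgeR 4.0.16, R 4.3.3). Log2 folds use a prior count of 2; CPM, RPKM and ratios carry none. Ratios have exact 95% intervals from the conditional binomial distribution, and shares have Wilson intervals. A gene at 0 counts is set against a floor of 3 counts per library (0.176 CPM untreated, 0.183 CPM Dox). The floor is a set value, so a fold taken from it is not a lower limit. Genes with at least 1 CPM in a library were kept for counts past 2-fold. No test between conditions was possible, and the interval calculation was tested on simulated data.

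The 5 genes and the lists were chosen with earlier results of these data known. Named genes are the 5 genes, the other genes of the locus with at least 10 counts, the 4 list members farthest from 0 in log2 fold, for other cell types also the 2 most abundant, a fixed set (Ikzf1, Trdc, Il7r, Stat5a, Stat5b, Rag1, Rag2, the CD3 chains and Sox13), genes within 500 kb of the locus and the 5 genes nearest to Trgc2; most single markers of other cell types are given only within their sums. Identities come from global alignments (Biopython 1.88). Alternatives were total-count, DESeq2 1.42.0, upper quartile and CD3 scaling, other prior counts and filters, the interval in place of the point estimate, totals without mitochondrial, ribosomal, haemoglobin and other-cell genes, and other denominators. The threshold of 16-fold and the grouping by cluster were added after the data were seen.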

Additional observations from a re-analysis of the deposited data

How the results depend on the processing

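All 5 gamma genes stayed past 2-fold, higher in the Dox library, under each scaling, prior count, filter and interval tried. Scaled to the CD3 chains, the log2 fold was 5.34 for Trgc2, 4.10 for Trgc4 and 5.29 for Trgv2, below the counting interval of the main value, and the locus ratio was 29.4. For Trgv4, at 0 counts untreated, a prior count of 5 gave 5.22 and a prior count of 0.5 gave 8.51, against 6.52 in the main setting. The interval of Trgv4 has no upper limit, so the value of 8.51 is counted as within it. Of all genes, 2993 were past 2-fold higher with a filter of 1 count and 1091 with a filter of 5 CPM, and 1016 were lower with the interval wholly beyond 2-fold, against 1644 higher and 1581 lower in the main setting. In the delta list 3 genes were higher with a filter of 1 count and 0 with 5 CPM, against 1. In the receptor list 1 gene was higher with upper quartile scaling and 0 were lower with 5 CPM; among regulators 1 was lower with upper quartile scaling; and in the gamma-delta list 9 were higher with a filter of 1 count. With the 5 genes as the denominator, shares were 4.88% for Trgc1, 44.7% for Trgc2, 31.0% for Trgc4 and 16.9% for Trgv2 in the Dox library, and 54.1% for Trgc4 untreated. Per kilobase they were 2.59% for Trgc1, 24.4% for Trgc2, 14.9% for Trgc4, 13.3% for Trgv2 and 1.69% for Trgv4 in the Dox library, and 17.2% for Trgc2 and 25.2% for Trgc4 untreated. Within their kind, constant or variable, Trgc1 took 6.03%, Trgc2 55.1%, Trgc4 38.2%, Trgv2 71.2% and Trgv4 10.9% in the Dox library, and Trgc2 36.9%, Trgc4 61.5% and Trgv2 60.0% untreated. With each denominator the share of Trgc4 was above that of Trgc2 untreated and below it in the Dox library; per length the untreated levels have overlapping intervals. The remaining 166 alternative values stayed within their intervals, within 1.5 times the main count or, for list medians, close to the main median. No paired analysis was possible because each group has 1 library. The 174 gamma counts of the untreated library limit every share taken from it.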
